A study of Mus musculus with 6 samples.

Results

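The tricarboxylic acid cycle oxidises acetyl groups from pyruvate and fatty acids in the mitochondrial matrix, and the heart draws most of its ATP from the electrons that the cycle passes to the respiratory chain. Its intermediates also leave the matrix through carriers, above all in the malate-aspartate shuttle, which moves the reducing power of cytosolic NADH into mitochondria. Anaplerotic enzymes refill the intermediates that leave. Described here are 30 genes of this pathway in mouse hearts: the mitochondrial pyruvate carrier and 2 subunits of the pyruvate dehydrogenase complex, 12 genes of cycle enzymes, 3 shuttle enzymes, 6 carriers and 5 anaplerotic genes. They were chosen by name, with earlier results of these data known. All 30 were found among the 48005 gene identifiers of the count table and had enough counts to be tested.

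RNA sequencing was carried out on heart tissue of C57BL/6 mice, 3 of them wild-type by their labels, with a floxed Txnip treatment label, and 3 of a conditional knock-in. In the mutant allele the PPXY motifs of Txnip, by which this alpha-arrestin binds ubiquitin ligases of the Nedd4 family, were changed to AAXA. All 6 mice carried MerCreMer, a Cre recombinase that needs 4-hydroxytamoxifen, and all received 4-hydroxytamoxifen, so both groups share these agents. The labels give no age, sex or preparation batch, and the series states that its control hearts also serve another series, so any batch and the knock-in cannot be told apart. Nothing in the labels names the driver of the Cre or the share of cells that it recombined.

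Library totals were 30329004 to 30625093 counts for wild-type and 31989883 to 34016586 for knock-in hearts. Counts of Txnip per 1000000 counts of a library (CPM) were 887, 939 and 886 in wild-type hearts, against 363, 751 and 670 in knock-in hearts (adjusted p = 0.0698, edgeR quasi-likelihood test). Its coding bins of at least 50 bases held 571 ± 17.9 CPM in wild-type and 310 ± 103 in knock-in hearts (SD, n = 3), and its 3′ untranslated bins 4.52 ± 0.71 and 91.3 ± 38.8. The groups did not overlap in either portion of Txnip, which was lower in knock-in hearts in the coding bins and higher in the 3′ untranslated bins. The gene sum of Txnip adds both. In edgeR fits of the 5′ and 3′ portions of the coding sequence cut into 3, its log2 differences were -0.99 and -0.93 (adjusted p = 0.0115 and 0.00884). In its last 1000 exonic bases the log2 difference was 4.58 (adjusted p = 0.00571). Coverage along transcripts also differed between the groups. Each gene's exons were cut into 3 equal portions, and the median log2 ratio of counts in the 3′ portion to the 5′ portion, over 1796 long genes, was 0.70, 0.49 and 0.30 in wild-type hearts and -0.08, -0.24 and -0.15 in knock-in hearts. Counts were therefore read in 2 ways, as the sum over all exon bins of a gene and from the bins in the last 1000 exonic bases alone, here called the 3′ end. The 3′ end was scaled on the 3′ end counts of all genes, so values of the 2 measures are on different scales. A log2 difference with no other mention is from gene sums.

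From gene sums, 4 of the 30 genes rose in knock-in hearts and 1 fell, at an edgeR adjusted p under 0.05, and 25 did not pass the test. The risers were Got2, Ogdh, Cs and Slc25a13, and the gene that fell was Mpc2. Of all 13066 genes tested, 6.74% were called higher and 4.09% lower, so the single lower call is close to the share among all genes. Upper-quartile scaling turned the balance over all genes to 594 higher and 734 lower, from 881 and 534, and under it Cs and Slc25a13 did not pass. The median log2 difference was 0.0032 over the 30 genes and -0.0043 over all genes tested, with 15 of the 30 above 0 and 15 below. The summed level of the 30 genes was 24908, 25531 and 24751 CPM in wild-type hearts, against 27473, 28029 and 26082 CPM in knock-in hearts. Most of this difference lay in Ogdh, Got2 and Cs. Their means went from 2572 to 3861, from 749 to 1127 and from 1027 to 1347 CPM. In bulk tissue, fewer cells of a type and less RNA per cell cannot be told apart.

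At the 3′ end, Got2 alone of 28 genes with bins there rose and none fell; 1.57% of the 8287 genes tested there were called higher and 1.77% lower. The 3′ end median was 0.16 over the 28 genes and -0.0047 over all genes tested. A log2 difference above 0 was seen in 21 of the 28, and 9 of these were below 0 in gene sums. These values depend on the separate scaling of the 3′ end. At the scaling of the gene sums, the bins nearest to the 3′ end, described further on, had a median of -0.13 in the set. Over protein-coding genes that median was -0.20. Groups did not overlap with knock-in higher in 11 of 28 genes at the 3′ end, against 11.9% of all genes tested there, and with knock-in lower in 2, against 11.6%. In gene sums the groups did not overlap with knock-in higher in 7 of 30 genes, against 16.7% of all genes, and with knock-in lower in 2, against 14.0%.

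**Figure D1:**
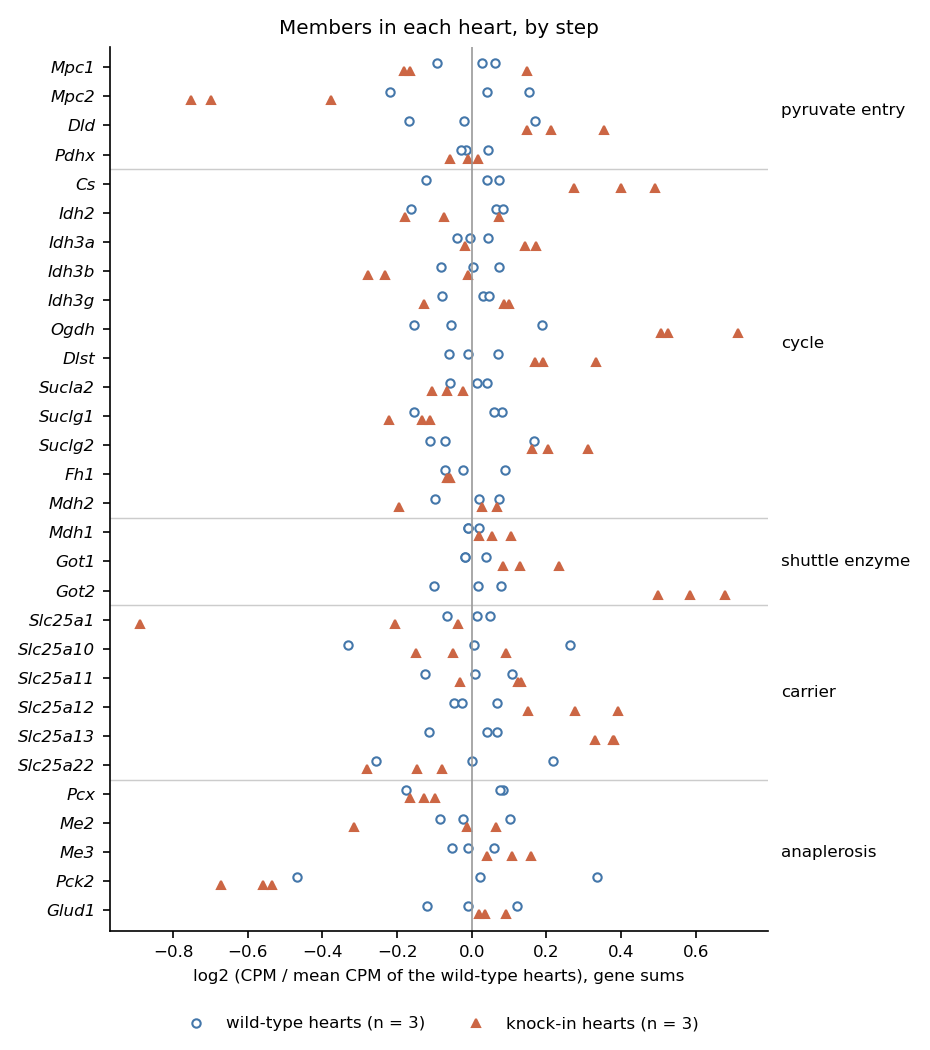
Log2 of each heart's gene-sum CPM over the mean of the wild-type hearts, for the 30 genes ordered by step; open circles are the 3 wild-type hearts and filled triangles the 3 knock-in hearts. Got2, Ogdh and Cs stand to the right of all wild-type hearts, Mpc2 to the left, and in 21 of the 30 genes the groups overlap.

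The sequences next to the transcription starts of the 5 genes past the threshold are shown so that their composition can be set beside the differences in first exons described further on. Each line gives the 30 bases before the start annotated by RefSeq (GRCm38.p6), 5′ to 3′ on the gene's strand, with each CG pair in capitals. For Ogdh, which has 6 annotated windows, the one shown is nearest to the gene start in the count table.

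Got2, chr8:95888402-95888431, minus strand: agggcCGctctagccaCGcccagggaagtc

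Ogdh, chr11:6291629-6291658, plus strand: ggctgagagtttggagccCGgagtggtgtc

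Cs, chr10:128337697-128337726, plus strand: gcCGgaggggggCGggctcaagtttCGggc

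Slc25a13, chr6:6217174-6217203, minus strand: gggcccagccaatgggctgaCGgcaccCGc

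Mpc2, chr1:165461230-165461259, plus strand: CGgcctctaggtgcttcacctctggctgcc

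Over the 100 bases before the start, GC content was 70% for Got2, 72% for Ogdh, 64% for Cs, 72% for Slc25a13 and 71% for Mpc2. The 4 genes that rose and the one that fell thus had windows of like composition, all above the median of 55% over all 32851 windows. The bases shown for Got2 and Mpc2 lie before a RefSeq start but inside an exon bin counted for the gene. Those for Ogdh reach past its gene start in the count table, at 6291633. The first kept bin of Ogdh described further on begins at 6296952, so it is not next to the bases shown. The half-site of estrogen-related receptors, nuclear receptors known to bind near genes of oxidative metabolism, was searched as AAGGTCA on both strands of the RefSeq windows, which run from 250 bases before to 50 after a start. Windows were given for 28 of the 30 genes, without Idh3a and Me2. A match was found in 5.41% of the 37 windows of these genes and in 4.72% of all 32851 windows. The extended form TNAAGGTCA, which contains the half-site, was in none of the 37 windows and in 1.28% of all windows, and CCGGAAGT, a motif of ETS factors, was in 2.70% and 3.89%. The 2 half-site matches were in windows of Ogdh and Got1, shown here with the match in capitals.

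Ogdh, chr11:6292154-6292183, minus strand: gccgcaggcaccAAGGTCAgcgccgtgtcc

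Got1, chr19:43524826-43524855, minus strand: cccagAAGGTCAggaggttgtcctctgggg

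The Ogdh match lies on the strand opposite to the gene and the Got1 match on the strand of the gene. A match in these letters is a description and says nothing of binding.

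Pyruvate enters the matrix through a carrier made of Mpc1 and Mpc2. Mpc2 (chr1:165460637-165481214, plus strand) stood at 437, 472 and 365 CPM in wild-type hearts, against 327, 252 and 262 CPM in knock-in hearts. All knock-in hearts were below all wild-type hearts. Mpc2 fell by 0.60 on the log2 scale (SE 0.13, adjusted p = 0.0166). Its 3′ end log2 difference was -0.14 (SE 0.10, adjusted p = 0.512), with 524, 589 and 504 CPM in wild-type and 538, 458 and 473 in knock-in hearts, and the groups overlapped. Mpc1, its partner, was at 881 ± 49.3 CPM in wild-type and 847 ± 113 in knock-in hearts, with a log2 difference of -0.06 (SE 0.11) in gene sums and 0.17 (SE 0.10) at the 3′ end. Neither Mpc1 value passed the test.

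The 2 subunits of the pyruvate dehydrogenase complex in the set did not pass the test. Dld encodes the dihydrolipoamide dehydrogenase that pyruvate and 2-oxoglutarate dehydrogenase share, and Pdhx the protein that binds it to the pyruvate dehydrogenase core. Dld was at 543 ± 63.7 CPM in wild-type and 642 ± 47.4 in knock-in hearts, with a log2 difference of 0.24 (SE 0.11, adjusted p = 0.186) and 0.19 at the 3′ end (adjusted p = 0.415). Pdhx was at 206 ± 5.51 and 203 ± 5.34 CPM, with a log2 difference of -0.02 and a 95% interval of -0.23 to 0.19.

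Citrate synthase, encoded by Cs (chr10:128337832-128362479, plus strand), joins acetyl-CoA to oxaloacetate at the entry of the cycle. Its CPM values were 944, 1056 and 1082 in wild-type hearts, against 1242, 1445 and 1355 in knock-in hearts. The groups did not overlap, and Cs rose by 0.39 on the log2 scale (SE 0.10, adjusted p = 0.0327). The groups did not overlap at the 3′ end either, with a log2 difference of 0.29 (SE 0.10, adjusted p = 0.13). That holds only under the separate scaling of the 3′ end, which for Cs is its last bin, of 1512 bases. At the scaling of the gene sums the same counts had a log2 difference of 0.05, and the groups overlapped.

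Ogdh (chr11:6291633-6356642, plus strand) encodes the substrate-binding E1 subunit of 2-oxoglutarate dehydrogenase, a control point of the cycle. Its CPM values were 2310, 2476 and 2931 in wild-type hearts, against 3707, 4219 and 3657 in knock-in hearts. Every knock-in heart was above every wild-type heart, and Ogdh rose 1.5-fold (log2 difference 0.59, SE 0.11, adjusted p = 0.00992). The 3′ end values were 1044, 1050 and 1041 CPM in wild-type and 1233, 1333 and 1152 in knock-in hearts. The groups again did not overlap, but the log2 difference was 0.25 (SE 0.09) and did not pass the test (adjusted p = 0.163). Dlst, the E2 subunit of the same complex, was at 594, 650 and 615 CPM in wild-type and 708, 781 and 697 in knock-in hearts, without overlap, and at a log2 difference of 0.23 (SE 0.10) it did not pass (adjusted p = 0.146).

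The isocitrate dehydrogenases did not pass the test in either measure. Idh2, the NADP-dependent enzyme of mitochondria, was at 3478 ± 320 CPM in wild-type and 3345 ± 296 in knock-in hearts, a log2 difference of -0.06 with a 95% interval of -0.29 to 0.18. Of the NAD-dependent enzyme, the catalytic subunit Idh3a had a log2 difference of 0.10, and its partners Idh3b and Idh3g had -0.17 and 0.02 (SE 0.10 to 0.11). Idh3a had 6.38% of its counts at the 3′ end.

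Succinyl-CoA ligase, which makes ATP or GTP in the cycle, is built from the alpha subunit Suclg1 and one of the beta subunits Sucla2 and Suclg2. Their log2 differences in gene sums were -0.16 for Suclg1, -0.06 for the ADP-forming Sucla2 and 0.23 for the GDP-forming Suclg2, with adjusted p from 0.201 to 0.701. Suclg2 held 0.35% of its counts at the 3′ end and fumarase, encoded by Fh1, 0.25%, so their 3′ end values rest on few counts. Fh1 was at 629 ± 36.0 CPM in wild-type and 602 ± 1.90 in knock-in hearts, with a log2 difference of -0.06 (95% interval -0.27 to 0.15).

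Malate dehydrogenase works on both sides of the inner membrane, as Mdh2 in the matrix and Mdh1 in the cytosol. Mdh2 was at 2771, 2670 and 2459 CPM in wild-type and 2759, 2685 and 2301 in knock-in hearts, and the groups overlapped at a log2 difference of -0.03. The 3′ end of Mdh2 was at 4000, 4003 and 3896 CPM in wild-type and 4870, 5192 and 4494 in knock-in hearts. There the groups did not overlap, and the log2 difference was 0.29 (SE 0.09, adjusted p = 0.0954). Mdh1 was at 3915 ± 45.9 and 4083 ± 124 CPM, with a log2 difference of 0.06 (95% interval -0.13 to 0.25).

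Aspartate aminotransferase is the other enzyme of the malate-aspartate shuttle. Got2 (chr8:95864134-95888547, minus strand), the mitochondrial enzyme, was at 698, 791 and 758 CPM in wild-type hearts, against 1123, 1199 and 1059 CPM in knock-in hearts. The lowest knock-in heart was above the highest wild-type heart. Got2 rose 1.5-fold (log2 difference 0.59, SE 0.10, adjusted p = 0.00684), and it was the one gene of the 30 that passed the test in both measures. Its 3′ end stood at 383, 410 and 395 CPM in wild-type and 517, 540 and 534 in knock-in hearts, a rise of 0.42 on the log2 scale (SE 0.09, adjusted p = 0.0212). Got1, the cytosolic enzyme, was at 1130, 1087 and 1087 CPM in wild-type and 1166, 1295 and 1204 in knock-in hearts. Its groups did not overlap, but its log2 difference of 0.15 (SE 0.10) did not pass (adjusted p = 0.335).

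Of the carriers, Slc25a13 passed the test in gene sums. Slc25a13 (citrin; chr6:6041218-6217173, minus strand) and Slc25a12 (aralar) exchange aspartate for glutamate in the shuttle, and aralar is known as the main form of heart, brain and skeletal muscle. Slc25a13 was at 173, 192 and 196 CPM in wild-type hearts, against 243, 235 and 244 CPM in knock-in hearts. The groups did not overlap, and Slc25a13 rose by 0.36 on the log2 scale (SE 0.10, adjusted p = 0.0392), with 0.21 at the 3′ end (adjusted p = 0.280). Slc25a12 was at 279, 302 and 283 CPM in wild-type and 320, 378 and 349 in knock-in hearts, also without overlap, at a log2 difference of 0.28 (SE 0.10, adjusted p = 0.106). No bin of Slc25a12 or of Me3 lay in the 3′ end window.

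The remaining carriers overlapped between the groups in gene sums. Slc25a11, which exchanges 2-oxoglutarate for malate in the shuttle, was at 800 ± 64.5 CPM in wild-type and 844 ± 53.0 in knock-in hearts. The glutamate carrier Slc25a22 was at 44.6 ± 7.25 and 39.7 ± 2.78 CPM, and the dicarboxylate carrier Slc25a10 at 15.7 ± 3.17 and 15.3 ± 1.29 CPM. The citrate carrier Slc25a1 was the lowest carrier, at 6.07, 5.92 and 5.59 CPM in wild-type and 5.71, 3.16 and 5.09 in knock-in hearts. Its log2 difference was -0.33 (SE 0.22), and knock-in heart 2 lay apart below the others.

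No anaplerotic gene passed the test. Pyruvate carboxylase, encoded by Pcx, was at 48.0 ± 4.76 CPM in wild-type and 43.8 ± 1.03 in knock-in hearts, and glutamate dehydrogenase, encoded by Glud1, at 183 ± 15.3 and 189 ± 5.0 CPM. The mitochondrial malic enzymes Me2 and Me3 had log2 differences of -0.08 and 0.10. Pck2, the mitochondrial phosphoenolpyruvate carboxykinase, was at 8.86, 7.13 and 5.08 CPM in wild-type and 4.77, 4.41 and 4.85 in knock-in hearts. Its groups did not overlap, by a small margin at wild-type heart 3, and the log2 difference of -0.59 (SE 0.21) did not pass (adjusted p = 0.0969).

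Per kilobase of exon bins of at least 100 bases, the most abundant of the 30 genes in wild-type hearts were Mdh2 at 1456 ± 96.2 and Idh2 at 1412 ± 125 CPM per kilobase (SD, n = 3). These neighbours in the order did not differ beyond their spread. Mdh1 followed at 965 ± 15.8 and Ogdh at 569 ± 65.5, and in knock-in hearts Ogdh stood at 837 ± 68.3. The lowest were Pck2 at 1.94 ± 0.54 and Slc25a1 at 1.95 ± 0.24, again within their spread of each other, and then Me2 at 4.43 ± 0.33. Levels of the aspartate/glutamate carriers were 28.5 ± 1.68 for Slc25a12 and 48.5 ± 2.78 for Slc25a13 in wild-type hearts on this scale, which counts the long 3′ untranslated exon of Slc25a12. A read is counted in each bin it spans, so these levels also depend on how the exons of a gene are cut.

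**Figure D2:**
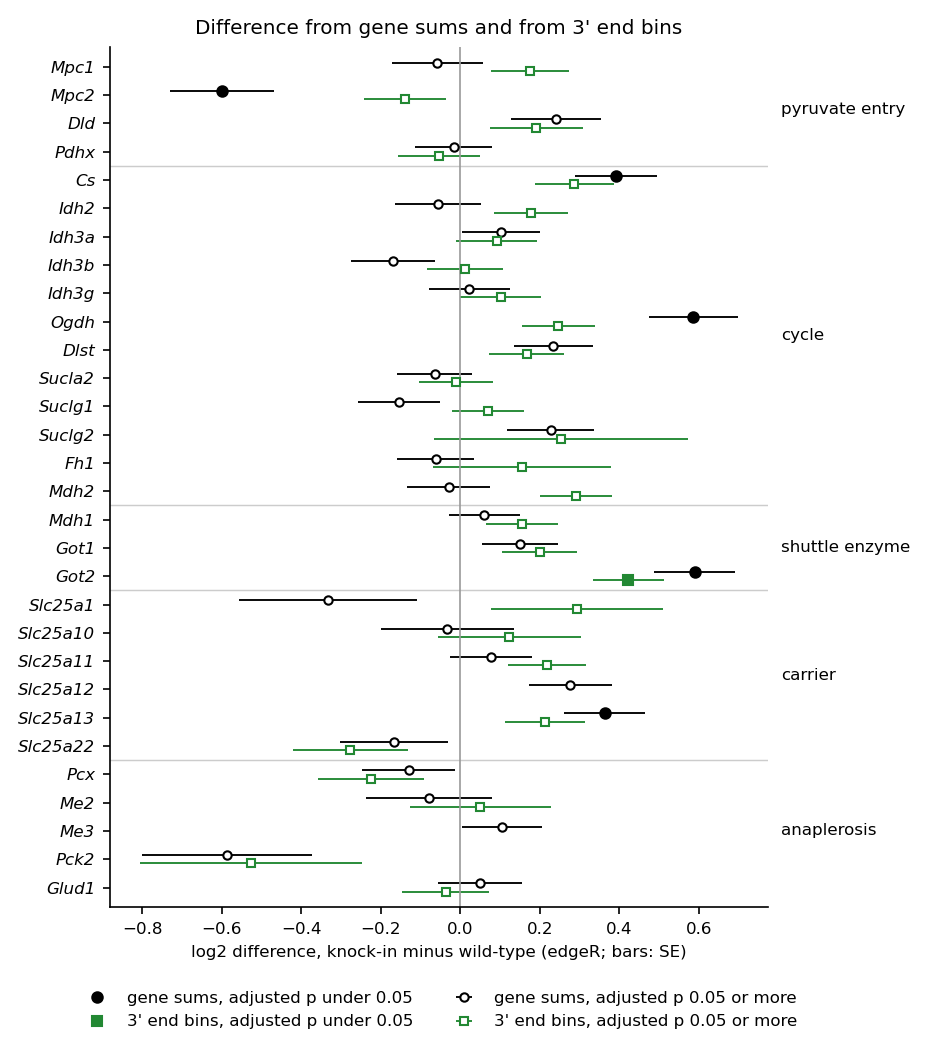
Log2 difference, knock-in minus wild-type, with its standard error for each gene from gene sums (black circles) and from 3′ end bins (green squares), n = 3 hearts per group; filled symbols have an adjusted p under 0.05. Got2 is filled in both, Ogdh moves from 0.59 to 0.25, and Mpc2 from -0.60 to -0.14. Each measure is scaled on its own.

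The difference within a gene depended on the position of the bin. Over 351 bins of 28 of the genes, with at least 30 bases and 300 counts, the median log2 difference was read in 5 equal groups of bins by distance from the 3′ end. It was -0.13 in the nearest group, 0.0016 in the next, and 0.18, 0.34 and 0.34 in the 3 groups farther away, all at the scaling of the gene sums. Spearman's rho between the difference and the distance from the 3′ end was 0.61 over these bins, against 0.04 with the GC content of the bin. Bins of a gene share its reads, so these are descriptions. Within the 25 genes with at least 6 such bins, the difference grew towards the 5′ end in 20, with a median rho of 0.78. Genes at large showed the same slope: of 3329 protein-coding genes with at least 6 bins kept by this rule, it grew in 84.3%, with a median rho of 0.75. For kept bins of 7642 protein-coding genes that lay in the same 5 ranges of distance, medians were -0.20, -0.04, 0.12, 0.25 and 0.48 from the nearest to the farthest.

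The risers show this slope bin by bin. In Ogdh the first kept bin, of 248 bases, held 1875, 2329 and 3506 counts in wild-type and 5001, 5660 and 5948 counts in knock-in hearts, a log2 difference of 1.04 without overlap. Its 1025-base bin at the end of the coding sequence held 14306, 13501 and 12482 counts in wild-type and 13876, 15061 and 13658 in knock-in hearts, a log2 difference of 0.02 with overlap. Wild-type heart 3 was the nearest of its group to the knock-in hearts in the first bin. Cs went from 0.63 in its first kept bin to 0.05 in its last, of 1512 bases, and Slc25a13 from 0.82 to -0.02. Slc25a12, which did not pass the test, went from 0.90 to -0.16.

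In Got2 the last bin also separated the groups. This bin holds all counts of the 3′ end of Got2 given above. It is thus the same observation at the scaling of the gene sums, not a further one. Its 923-base 3′ untranslated bin held 5655, 5664 and 5149 counts in wild-type and 6176, 6529 and 6818 counts in knock-in hearts. The log2 difference there was 0.19, and in the bin that holds its coding start it was 0.85. Of the last kept bins of the 28 genes, that of Got2 was the one with all knock-in hearts higher, 12 had all knock-in hearts lower and 15 overlapped. Over the last kept bins of 7642 protein-coding genes, 5.25% were higher and 26.0% lower without overlap, with a median log2 difference of -0.18.

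**Figure D3:**
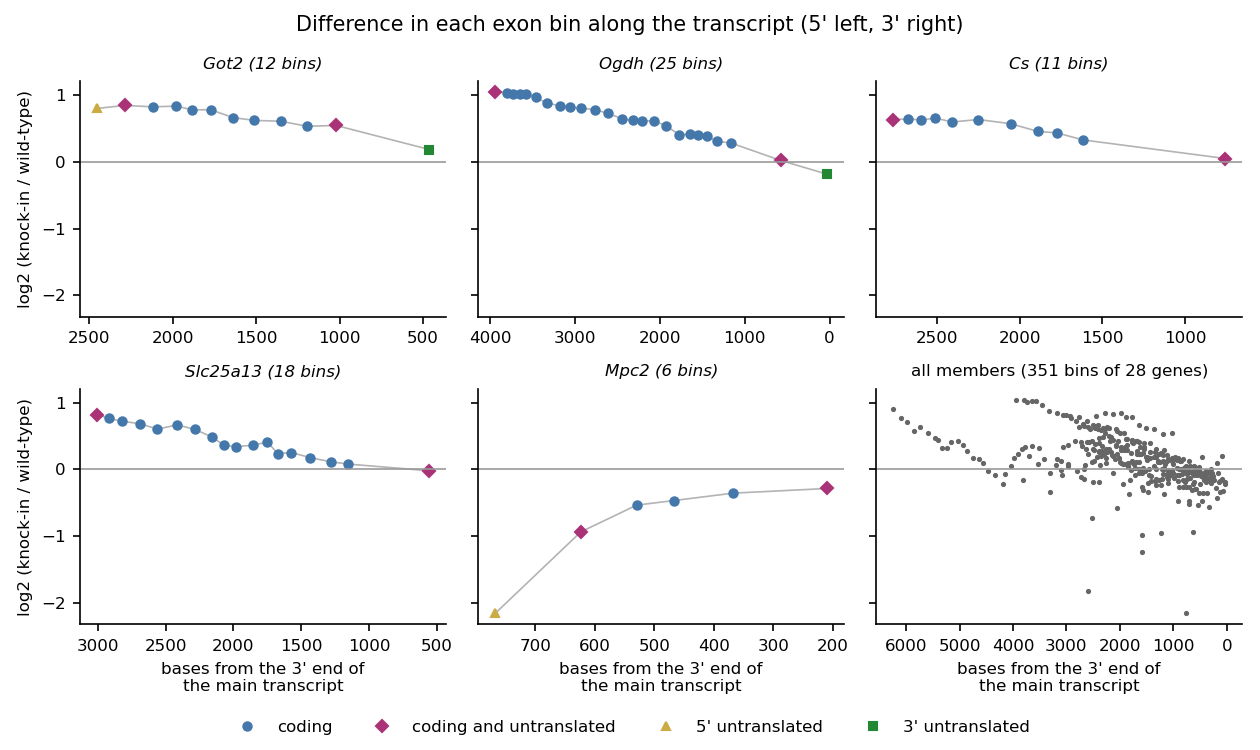
Log2 difference, knock-in over wild-type CPM, of each exon bin against its distance in bases from the 3′ end of the main transcript, for the 5 genes past the threshold and for all 351 bins of 28 genes. Differences of Got2, Ogdh, Cs and Slc25a13 grow towards the 5′ end, those of Mpc2 run the other way to -2.16, and the last bin of Got2 stays above 0 at 0.19.

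In some genes the first bins were lower in knock-in hearts. Of 25 genes with a kept bin within 400 bases of the 5′ end, the first such bin was higher without overlap in knock-in hearts in 10, lower without overlap in 7 and overlapped in 8. Among 3354 protein-coding genes with such a bin, 28.6% were higher and 13.7% lower without overlap, so first bins apart in either direction were also found among other genes. The 7 were Mpc2, Fh1, Slc25a11, Idh2, Mdh2, Sucla2 and Me3. Mpc2's bin of 141 bases held 1226, 1487 and 983 counts in wild-type and 439, 213 and 194 counts in knock-in hearts, a log2 difference of -2.16, while its last kept bin, of 206 bases, had -0.29. The first bin of Fh1, 62 bases, held 250, 283 and 336 counts in wild-type and 128, 70 and 52 in knock-in hearts (log2 difference -1.83). In both, knock-in heart 1 was the nearest of its group to the wild-type hearts. Slc25a11 had -1.23, Idh2 -0.99, Mdh2 -0.95, Sucla2 -0.57 and Me3 -0.22 in the first bin, and for these 5 genes the gene sums did not pass the test.

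Over all genes tested, the gene-sum difference varied with length. In 5 equal groups by exonic length in the count table, the median log2 difference was -0.19 in the shortest and 0.20 in the longest. From the shortest to the longest group, the medians of the 3, 12, 9, 3 and 3 genes of the set were -0.06, -0.0050, -0.02, 0.10 and 0.10. Mpc2, with 7344 exonic bases there, was in the longest group, so its fall was opposite in sign to the median of that group, although its main transcript measures 1025 bases. Main transcripts of the 4 risers measured 2530 to 4127 bases, and those of the other 25 genes 958 to 6351 bases with a median of 2403. The coverage values above and these lengths stand beside every gene-sum difference, and their part in it was not tested. In a fit of the 5′ portion of the coding sequence cut into 3, scaled on that portion of all genes, Ogdh rose by 0.69 (adjusted p = 0.0108) and Got2 by 0.56 (adjusted p = 0.0102), and Slc25a1 fell by 1.53 (adjusted p = 0.0288). Of all genes, 8.57% were called higher there and 5.53% lower. The fall of Slc25a1 rests on few counts, as the whole gene held 104 to 189 per heart. Its log2 difference was 0.17 in the 3′ portion of the coding sequence and 0.29 at the 3′ end, and neither passed. In the 3′ portion of the coding sequence Got2 rose by 0.57 (adjusted p = 0.00731), Ogdh by 0.38 (adjusted p = 0.0226) and Cs by 0.37 (adjusted p = 0.0454), with 5.90% of all genes called higher and 3.17% lower. With each portion scaled on its own, the 5′ difference was above the 3′ one in 37.9% of 29 genes of the set (median -0.05) and in 50.9% of the 7346 genes tested in both (median 0.0080). These portions were added as alternatives after the data had been seen.

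Partner genes were compared within each heart as log2 ratios of their CPM, which need no scaling between hearts. Of 10 pairs, 5 did not overlap between the groups, each at the smallest p that an exact two-sided permutation test of 3 against 3 hearts can give, 0.1 (0.2 after Benjamini-Hochberg adjustment over the 10 pairs). The design cannot reach 0.05. The log2 ratio of Got1 to Got2 was 0.70, 0.46 and 0.52 in wild-type hearts, against 0.06, 0.11 and 0.19 in knock-in hearts, so the cytosolic transcript exceeded the mitochondrial one by less in each knock-in heart. That of Mpc1 to Mpc2 was 1.04, 0.96 and 1.18 in wild-type and 1.58, 1.62 and 1.59 in knock-in hearts. Both of these ratios also separated the groups at the 3′ end, by -0.23 and 0.31, and they were the only 2 of 8 pairs measured there that did. The share of pairs without overlap among other genes was not computed, so these counts cannot be read as particular to the set. Of single genes, 16.7% were higher and 14.0% lower without overlap in gene sums, and 11.9% and 11.6% at the 3′ end.

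The other pairs without overlap were Ogdh to Dlst, higher by 0.36 in knock-in hearts, Sucla2 to Suclg2, lower by 0.29, and Me2 to Me3, lower by 0.19. The Me2 to Me3 ratio was -3.31, -3.25 and -3.33 in wild-type and -3.34, -3.77 and -3.35 in knock-in hearts. Its groups were parted by 0.01, and without knock-in heart 2 its difference was -0.05. At the 3′ end Ogdh to Dlst was 0.08 higher, with overlap. The ratios of Idh3a to its partners Idh3b and Idh3g, of Idh2 to Idh3a, of Mdh1 to Mdh2 and of Slc25a12 to Slc25a13 overlapped between the groups, with differences from -0.16 to 0.27 and unadjusted exact p from 0.2 to 0.7.

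**Figure D4:**
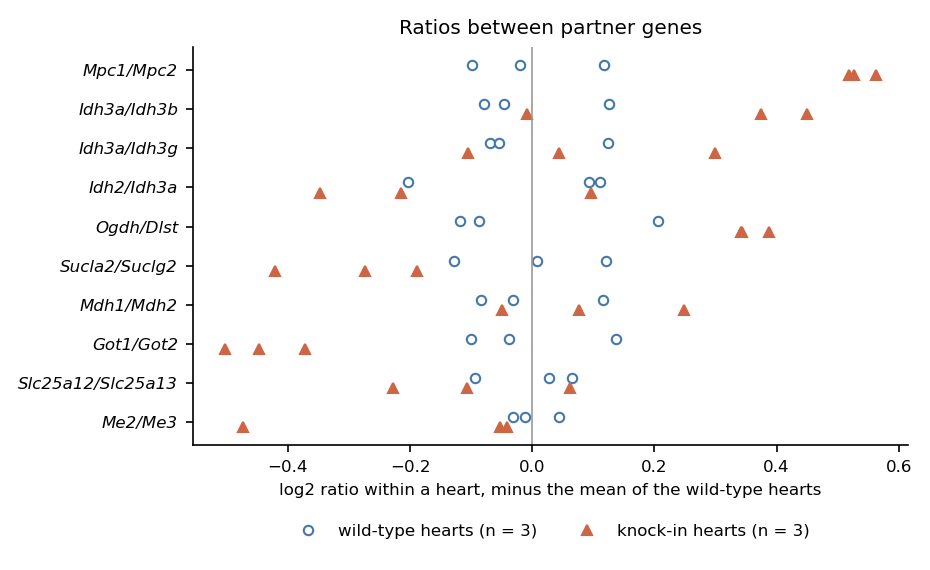
Log2 ratio of 2 partner genes in each heart from gene sums, minus the mean of the wild-type hearts, for 10 pairs; open circles are the 3 wild-type hearts and filled triangles the 3 knock-in hearts. The Mpc1/Mpc2 ratio is higher in all knock-in hearts by 0.54 on average and the Got1/Got2 ratio lower by 0.44.

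A further 39 genes of the pathway, listed by function, were counted for context. Of the 36 tested in gene sums, 7 rose, 1 fell and 28 did not pass, with a median log2 difference of 0.10. Among the risers were Glul, glutamine synthetase, by 0.59 (adjusted p = 0.00734); D2hgdh, which oxidises D-2-hydroxyglutarate, by 0.67 (adjusted p = 0.0380); Gpd1, the cytosolic enzyme of the glycerol phosphate shuttle, by 0.48 (adjusted p = 0.0217) and its relative Gpd1l by 0.43 (adjusted p = 0.0465). Pdha1, the catalytic subunit of pyruvate dehydrogenase, rose by 0.44 (adjusted p = 0.0299) and the cytosolic malic enzyme Me1 by 0.42 (adjusted p = 0.0248). The alanine aminotransferase gene Gpt fell by 0.44 (adjusted p = 0.0476). Of 29 tested at the 3′ end 1 rose, Glul by 0.53 (adjusted p = 0.0144), and none fell. The subunits of succinate dehydrogenase did not pass in gene sums, nor did Sdha, Sdhb and Sdhd at the 3′ end, where Sdhc was not tested.

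Markers of the heart's cell types were read beside these values. The summed level of 7 cardiomyocyte markers was 66493 to 73315 CPM in wild-type and 77915 to 82545 CPM in knock-in hearts, with none of the 7 past the threshold. Smooth muscle and pericyte markers summed to 476 to 513 CPM in wild-type and 263 to 475 CPM in knock-in hearts, with 3 of 6 lower, and macrophage and leukocyte markers to 193 to 216 and 155 to 159 CPM, with 1 of 6 lower. In these 3 lists the groups did not overlap, in the smooth muscle and pericyte list by less than 1 CPM. Within that list the pericyte markers Rgs5 and Pdgfrb overlapped. Rgs5 was at 206 to 238 CPM in wild-type and 163, 199 and 280 in knock-in hearts, and Pdgfrb at 21.8 to 28.3 and 15.8, 29.3 and 35.7. Of the cardiomyocyte markers, Myh6 and Actn2 were higher in all knock-in hearts, and Tnnt2, Ryr2, Myl2, Pln and Nppa overlapped. Myh6 was at 21947, 16874 and 24032 CPM in wild-type and 26310, 29874 and 26429 in knock-in hearts. Of the macrophage and leukocyte markers, Lyz2 and C1qa were lower in all knock-in hearts, and Csf1r, Adgre1, Cd68 and Ptprc overlapped. Endothelial, fibroblast, and red cell and platelet sums overlapped, with 2 of 6, 1 of 7 and 2 of 5 markers lower and 1 of the last higher. Adipocyte markers summed to at most 0.71 CPM in any heart, with Lep at 0. The part of these levels in the differences of the 30 genes was not tested.

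Which genes passed depended on the hearts fitted, in the set as over all genes. Without wild-type heart 1 or without knock-in heart 2, none of the 5 called genes passed the test. Of all genes tested, 0.96% were then called higher and 0.61% lower, and 0.79% and 0.44%. Without wild-type heart 2 Got2 alone passed (1.12% and 0.84% of all genes), and without knock-in heart 3 Got2 and Ogdh did (2.02% and 1.24%). Without knock-in heart 1 all but Slc25a13 passed (8.77% and 6.75%), and without wild-type heart 3 all 5 and also Pck2 (11.6% and 6.89%). Over these 6 fits the log2 difference ran from 0.51 to 0.62 for Got2, 0.49 to 0.69 for Ogdh, 0.31 to 0.43 for Cs, 0.28 to 0.40 for Slc25a13 and -0.74 to -0.53 for Mpc2. The 3′ end of Got2 passed in 3 of 6 such fits, with log2 differences from 0.40 to 0.45.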

How the data were processed

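Hearts of 6 mice, 3 per group, gave 1 deposited table of counts per exon bin. The submitters' processing notes name STAR, featureCounts, Subread 1.5.2, DESeq2 and GRCm38.p6 for the authors' steps, without role or settings. The deposited counts are whole numbers without normalization in 425461 bins. A read is counted in each bin it spans, and reads that match close copies, such as processed pseudogenes, can be shared.

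Bins were summed per gene identifier, or over bins whose middle lay in the last 1000 exonic bases. After filterByExpr (minimum count 10) and TMM scaling, edgeR 4.0.16 (robust glmQLFit, then glmQLFTest; R 4.3.3) gave p-values, adjusted by Benjamini-Hochberg over all genes tested, with a threshold of 0.05. Differences are knock-in minus wild-type; the SE is the log2 difference over the square root of F, and 95% intervals use the t distribution of the test. CPM values use TMM-scaled totals, taken for the gene sums and for the 3′ end apart. Transcripts and coding positions came from GENCODE annotation of GRCm38. Chi-square per degree of freedom between hearts of a group was 15.1 to 42.9, beyond counting error, so each heart was a sample of its own. Reads without molecular identifiers can be copies of 1 molecule, so errors were taken from the spread between hearts. Ratios of 3′ to 5′ portions had 10 counts added to each; they were read for 27 of the 30 genes and for genes with at least 4000 exonic bases, 10 bins and 6000 counts in all.

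On simulated data, the gene-sum step (12921 genes) recovered 29 of 100 genes changed 1.5-fold and 69 of 100 changed 2-fold with 11 false calls, and the 3′ end step (8107 genes) 41, 63 and 9. Unlike the data, the simulated counts were given no group difference in coverage along transcripts or by length. These false calls therefore do not cover calls that go with such differences. All 30 genes are named; of the 39 further pathway genes, those past the threshold, except 1 that is not reported here. The 30 genes, the further genes and the marker lists were chosen with earlier results of these data known. Alternatives were limma-voom (limma 3.58.1), DESeq2 1.42.0, other scalings, filters and windows, length and GC offsets, and each heart left out.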

Additional observations from a re-analysis of the deposited data

How the results depend on the processing

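No value of a called gene changed sign under any alternative. Of the single-gene and partner-ratio values recomputed, 969 kept their side of the threshold, 92 lost it and 9 gained it. Not all values of genes that were not called kept their direction. The log2 difference of Dld in gene sums, for example, ran from -0.09 to 0.34. No scaling moved the median of all genes tested by more than 0.08. From gene sums, where 881 genes were called higher and 534 lower, with 4 and 1 of the 30 genes and 7 and 1 of the further pathway genes, counts moved as follows; the causes were not tested. Upper-quartile scaling called 594 genes (4.55% of those tested) higher and 734 (5.62%) lower, 2 of the 30 higher, losing Cs and Slc25a13, and 3 further genes higher. DESeq2 called 815 genes lower and 11 further genes higher, and no filter on low counts 877 genes lower, with 11 further genes higher and 2 lower. The highest bin of each gene alone gave 377 genes higher and 235 lower, 1 of the 30 higher (Me3, none of the 5) and 0 lower, and 2 further genes higher and 0 lower. Length and GC offsets gave 1301 genes (9.96%) higher and 587 (4.49%) lower, 8 of the 30 higher, adding Dld, Dlst, Got1 and Slc25a11, and 12 further genes higher and 0 lower. The 5′ portion of the coding sequence gave 2 of the 30 higher and 3 further genes lower, and the 3′ portion 484 genes higher and 260 lower, 0 of the 30 lower, and 4 further genes higher and 0 lower. DESeq2, limma-voom, no filter and leaving out the mitochondrial genome kept all 5 calls; DESeq2's size factors, bins of at least 50 bases and bins outside the last 1000 bases lost Slc25a13.

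At the 3′ end, where 130 genes were called higher and 147 lower, the last 500 bases gave 50 and 67, with 0 further genes higher. The last 2000 bases gave 217 and 225, with 2 of the 30 and 4 further genes higher. Bins touching the last 1000 bases, added after seeing the data, gave 215 higher, and no filter 286 higher and 337 lower, with 4 further genes higher.

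Leaving out each heart gave 105 to 1544 genes higher and 59 to 917 lower from gene sums, lowest without knock-in heart 2 and highest without wild-type heart 3. The 30 genes then held 0 to 4 higher and 0 to 2 lower calls, and the further genes 0 to 12 and 0 to 1. At the 3′ end the ranges were 20 to 171 higher and 35 to 257 lower over all genes, 0 to 2 higher among the 30 and 0 to 4 among the further genes. No paired analysis was possible because hearts are numbered in accession order only, and the labels tie no wild-type heart to a knock-in heart.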
